A study of Mus musculus with 8 samples.

Results

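The genes described here are the interferon-stimulated genes and the interferon receptor genes of Th17 cells with and without *Trim28*. They were taken as a list of 52 gene symbols, 48 of them induced genes and 4 receptor genes, of which 51 had reads in at least 1 of the 2 RNA-seq libraries, out of 13704 genes with reads. *Ifi44* had reads in neither library. Th17 cells are helper T cells that make IL-17. They were grown in culture, starting from naive CD4+ T cells of C57BL/6 mice, either wild type (WT) or TRIM28fl/flxCD4cre (KO), over 3 days in TGF-β (0.5 ng/ml) plus IL-6 (20 ng/ml), and the study's methods add a re-stimulation with anti-CD3 before RNA was taken. Cre was driven by the *Cd4* promoter, which is active from the thymus on, so that deletion began before the culture. The labels do not say whether the WT mice carried Cre or the floxed allele, nor how many mice each culture came from.

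There was 1 library per genotype, so that no difference below has a replicate check, and each test compares these libraries, not the genotypes. Uniquely assigned reads numbered 6.65 M (M, 1000000) for WT and 6.19 M for KO. Levels are given as CPM (reads per 1000000 assigned reads) or, between genes, as RPKM (CPM per kilobase of the longest annotated transcript). The log2 ratio is KO over WT, on the log2 scale, with 0.5 added to each count, and exact 95% intervals cover counting error only. To be called, a gene had to differ by 2-fold or more with an adjusted p below 0.05, from a two-sided exact binomial test on reads with Benjamini-Hochberg adjustment over the 10881 genes that had 10 or more reads in sum. *Trim28* itself had 4485 WT reads and 180 KO reads (log2 ratio -4.53). The cells carried T-cell and Th17 markers: the 7 T-cell markers summed to 4911 CPM (WT) and 4252 CPM (KO). The 5 Th17 markers summed to 1139 and 328 CPM, with *Il17a* and *Il17f* called lower. Of 15 macrophage and dendritic cell markers, 9 had reads, 6.01 and 23.3 CPM in sum. Of these, *Clec12a* (0 and 75 reads) and *Cd5l* (6 and 46 reads) were called higher. The others with reads were *Cd68* (22 and 16), *Spi1* (5 and 0), *Itgax* (0 and 4), *Cd14* (0 and 2), *Mpeg1* (3 and 0), *Fcgr3* (3 and 0) and *Itgam* (1 and 1), and *Lyz2*, *Csf1r*, *Adgre1*, *C1qa*, *C1qb* and *C1qc* were at 0 in both libraries. The 6 B-cell markers summed to 94 and 47 reads, with *Cd79b* called lower, the 5 NK-cell markers to 64 and 76 reads, the 4 plasmacytoid dendritic cell markers to 12 and 8, and the 2 CD8 T-cell markers to 53 and 29. No neutrophil or erythroid marker had reads. The part of other cells in the values below was not tested. In such bulk samples fewer expressing cells and less RNA per cell cannot be told apart.

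Interferons are antiviral cytokines. Type I interferons signal through IFNAR1 and IFNAR2 to transcription factors that bind the interferon-stimulated response element (ISRE) of their target genes. Interferon-γ signals through IFNGR1 and IFNGR2 to factors that bind the gamma-activated site (GAS). The targets include sensors of foreign nucleic acids, enzymes that block viral replication and large GTPases that attack intracellular microbes. TRIM28 is best known as a co-repressor that KRAB zinc finger proteins bring to repeats, endogenous retroviruses among them.

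Most interferon-stimulated genes with many reads were close to equal in the WT and KO libraries, and a few with low counts in the WT library were higher in the KO library. Of the 51 genes, 36 had enough reads to be tested. Among these, 4 were called higher (*Usp18*, *Ifit1*, *Cmpk2* and *Ifitm3*), which is 11.1% against 2.57% of all tested genes, and 1 was called lower (*Adar*), which is 2.78% against 5.53%. The share called higher depends on the read limit: *Usp18*, *Ifit1* and *Cmpk2* had under 10 WT reads and met it only with their KO reads. With 10 or more reads asked of each library, 30 of the genes were tested. Then 1 was called higher (*Ifitm3*) and 1 lower (*Adar*), against 184 and 389 of 9447 genes. The median log2 ratio of the 36 genes was -0.02, and that of all tested genes was also -0.02. In sum the 51 genes held 19384 WT reads and 18193 KO reads, 0.291% and 0.294% of the libraries. At an adjusted p under 0.05 with no limit on size, 11 of the 36 were higher and 7 lower, 30.6% and 19.4% against 21.4% and 22.4% of all tested genes. Of the 27 genes with 100 or more reads in sum, 22 differed by less than 1.5-fold, 3 were higher by more (*Usp18*, *Ifitm3* and *Tor3a*) and 2 lower by more (*Parp14* and *Ifi27l2a*). *Usp18* is among the 27 only through its KO reads. The same split was not counted over all tested genes, so that it describes these genes and does not set them apart.

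**Figure D1:**
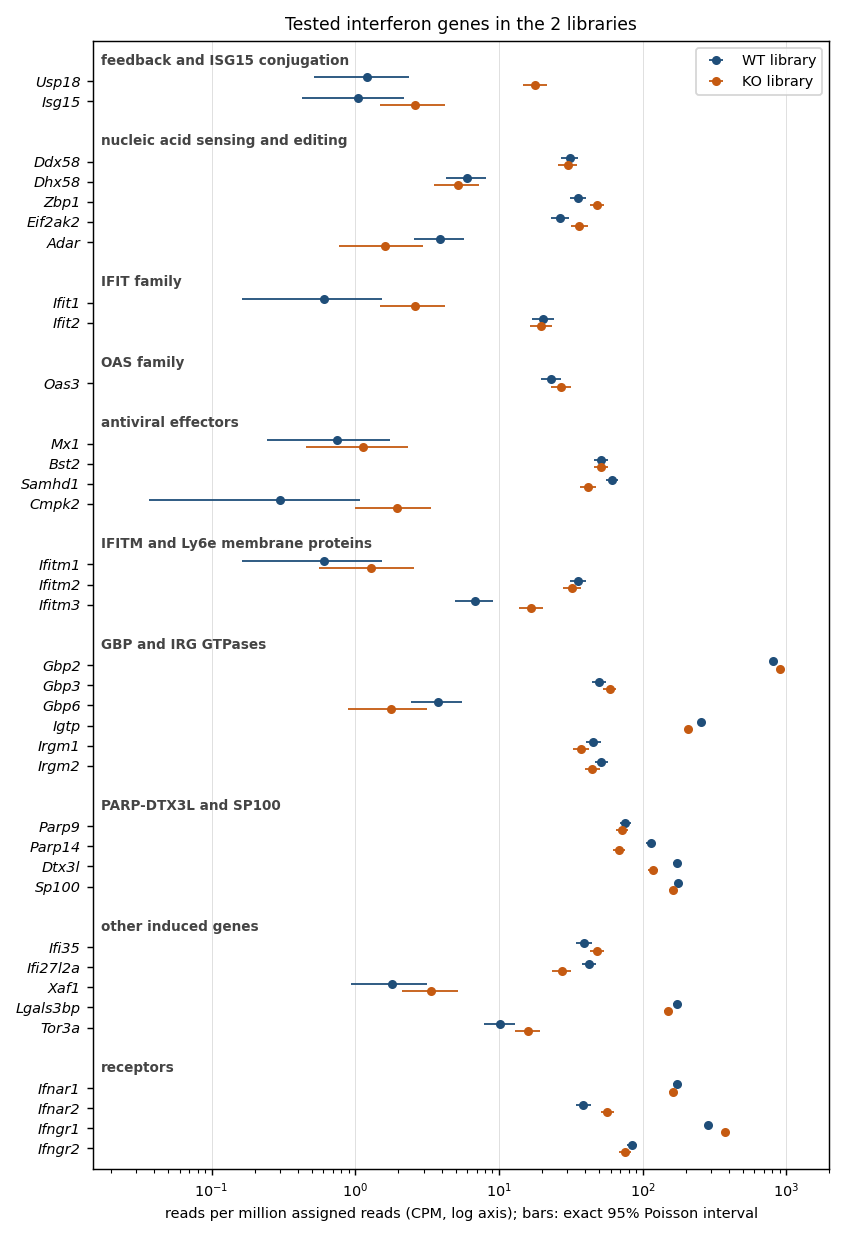
Level of each of the 36 tested genes, grouped by role, in the WT library (blue) and the KO library (orange), as CPM on a log axis with exact 95% Poisson intervals. *Usp18*, at 1.20 CPM (WT) and 17.9 CPM (KO), is the pair of points that lie farthest apart, and *Gbp2* has the highest values.

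*Usp18* showed the widest difference of the set. It encodes the protease that takes the ubiquitin-like protein ISG15 off its targets and that also binds IFNAR2 to damp type I interferon signalling. It had 8 reads in the WT library (1.20 CPM, exact 95% interval 0.519 to 2.37) and 111 in the KO library (17.9 CPM, interval 14.8 to 21.6). It was called higher, with a log2 ratio of 3.82 (95% interval 2.87 to 5.15), which is 14.1-fold. Only 2 of the 7663 tested genes with 100 or more reads in sum had a higher log2 ratio. *Usp18* met that limit only with its 111 KO reads, so that this place depends on the limit. Among all tested genes, without that limit, its log2 ratio ranked 16 from the highest. *Usp18* lies on chromosome 6 of GRCm38 from 121245906 to 121270917. Genes within 100 kb of it, looked up after its value was seen, did not share the difference: *Pex26* had 144 and 146 reads, *Tuba8* 31 and 32, and *Slc6a13* 3 and 2. *Mical3* had 290 and 179 reads, which is lower in the KO library but by less than 2-fold. Of the exonic bases of *Usp18*, 7.0% overlap another annotated gene, *Gm44148*, and none of its 50-base stretches occurs in a transcript of another gene. It remained called when cultures were assumed to vary with a coefficient of variation of 0.2, and not at 0.4 (edgeR's exact test, adjusted p = 0.112).

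*Isg15*, whose product USP18 removes from proteins, had 7 WT and 16 KO reads. It was not called, with a log2 ratio of 1.24 and an interval of -0.06 to 2.82 that includes 0. Part of this gene (10.6% of its exonic bases) overlaps an annotated neighbour, and the sources used here do not say whether counting used strand.

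*Ifit1*, which encodes a protein that binds viral RNA with an unmethylated cap, had 4 WT and 16 KO reads. It was called higher with a log2 ratio of 1.98 (95% interval 0.47 to 4.14). Its neighbours on chromosome 19 did not follow it: *Ifit2* had 135 and 122 reads, a log2 ratio of -0.04 (interval -0.41 to 0.32), and *Ifit3* had 0 and 1. Of the 50-base stretches of *Ifit3*, 51.2% also occur in *Ifit3b*, so that a count of uniquely assigned reads may miss part of its reads. *Cmpk2*, a mitochondrial nucleotide kinase gene, was called higher with 2 and 12 reads and a log2 ratio of 2.43 (interval 0.52 to 5.89). *Rsad2*, the gene of the antiviral enzyme viperin, lies beside *Cmpk2* on chromosome 12 and had 0 and 2 reads. These values rest on few reads. *Ifit1* and *Cmpk2* were called at adjusted p = 0.0158 and 0.0157 (exact binomial test), and at an assumed coefficient of variation of 0.2 their adjusted p was 0.394 and 0.41.

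The IFITM genes encode small membrane proteins that hinder the fusion of viruses with cell membranes. *Ifitm3* was called higher, with 45 WT and 104 KO reads, a log2 ratio of 1.30 (95% interval 0.80 to 1.85). *Ifitm2*, on the same stretch of chromosome 7, had 237 and 200 reads, a log2 ratio of -0.14 (interval -0.42 to 0.14). *Ifitm1* had 4 and 8 reads, and *Ly6e*, an interferon-induced surface protein gene, 3 and 0. The members of this family thus had unlike values in the same libraries. Of the 50-base stretches of *Ifitm2*, 48.5% occur in transcripts of other genes, against 10.0% for *Ifitm3*. Across all tested genes log2 ratios were lower for longer transcripts (Spearman's rho -0.37 over 10793 genes, which are not independent), and *Ifitm3* is short. Taking off a loess curve against length brought its log2 ratio to 0.97, under the 2-fold limit. *Ifitm2* is short too, and the same correction took it from -0.14 to -0.47, still under 2-fold, with an adjusted p of 0.00265 (exact binomial test).

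Several other genes known as strong targets of type I interferon were near the limit of detection in both libraries. A level of 3 reads, taken as the smallest that the depth shows, was 0.451 CPM (WT) and 0.485 CPM (KO). *Rtp4*, which encodes a chaperone of receptors, had 0 WT and 9 KO reads, at least 3.23-fold higher against a floor of 3 reads in the WT library. With fewer than 10 reads it was not among the tested genes; with the limit lowered to 1 read, its adjusted p was 0.00557 (exact binomial test). *Mx1*, a gene of the dynamin-like GTPase family, had 5 and 7 reads, and *Mx2* 1 and 3. *Xaf1*, the gene of an antagonist of the apoptosis inhibitor XIAP, had 12 and 21 reads, a log2 ratio of 0.89 with an interval of -0.18 to 2.07. The 15 genes with reads that were not tested had at most 9 reads in a library and summed to 21 WT and 29 KO reads. Besides *Rtp4* they were *Ifih1* (2 and 0), *Ifit3*, *Oas1a* (1 and 0), *Oas2* (2 and 4), *Oasl1* (2 and 2), *Oasl2* (0 and 3), *Mx2*, *Rsad2*, *Isg20* (2 and 1), *Ly6e*, *Gbp4* (1 and 1), *Gbp7* (2 and 1), *Iigp1* (1 and 1) and *Ifi47* (4 and 1). For *Oas1a*, 57.6% of the 50-base stretches also occur in *Oas1g*, so that its count, like that of *Ifit3*, may miss part of its reads. Of the 9 tested genes with under 100 reads over both libraries, 6 had a log2 ratio above 0 and 3 below. This split was not counted over all tested genes with so few reads, and nothing is read from it.

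**Figure D2:**
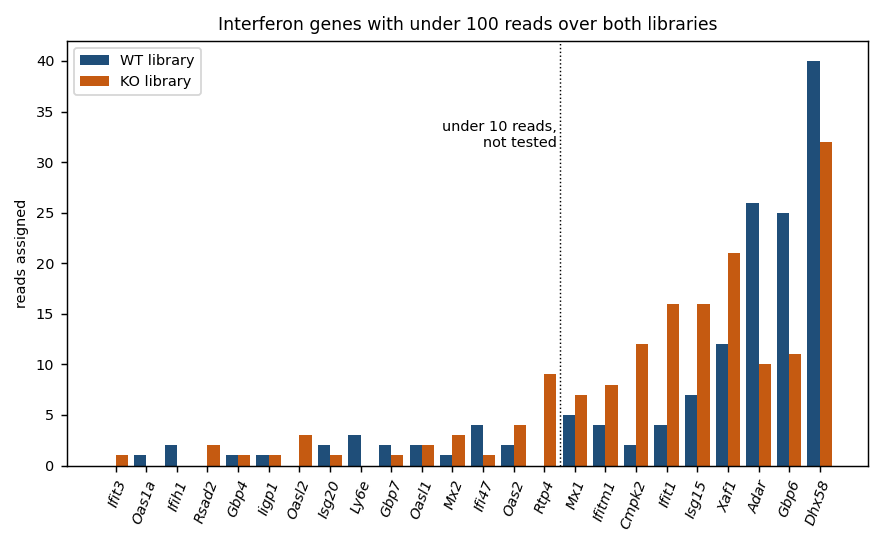
Reads assigned in the WT library (blue bars) and the KO library (orange bars) to the 24 genes with fewer than 100 reads over both libraries, ordered by their sum. Those left of the dotted line had under 10 reads in sum and were not tested; *Cmpk2* (2 and 12 reads) and *Ifit1* (4 and 16 reads) were called higher and *Adar* (26 and 10 reads) lower.

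Sensors and editors of nucleic acids were expressed at low to moderate levels and mostly close between the libraries. *Adar*, whose product changes adenosine to inosine in paired RNA strands, was the 1 gene called lower, with 26 and 10 reads, a log2 ratio of -1.23 (interval -2.49 to -0.17) and adjusted p = 0.043 (exact binomial test). This call was lost when the limit was lowered to 1 read (adjusted p = 0.0534, exact binomial test), with 5 added to each count (log2 ratio -0.94) and with the length correction (log2 ratio -0.94). *Ddx58*, the gene of the RNA sensor RIG-I, had 207 and 186 reads, and *Dhx58*, the gene of its relative LGP2, 40 and 32, both with intervals that include 0. *Zbp1*, a sensor of Z-form nucleic acids, had 237 and 299 reads, a log2 ratio of 0.44 (interval 0.19 to 0.69). *Eif2ak2*, the gene of the RNA-activated kinase PKR, had 178 and 225 reads and also a log2 ratio of 0.44 (interval 0.15 to 0.73). Both were past the counting error but under 2-fold, and 33.4% of the exonic bases of *Eif2ak2* overlap other annotated genes.

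Among antiviral enzymes, *Oas3* was the 1 gene of the 5 oligoadenylate synthetase family members with enough reads to be tested. It had 153 and 168 reads, a log2 ratio of 0.24 (interval -0.09 to 0.57). *Bst2*, which encodes tetherin, a protein that holds budding viruses at the cell surface, had 342 and 319 reads. Its level was 51.4 CPM (WT) and 51.6 CPM (KO), a log2 ratio of 0.00 (interval -0.22 to 0.23). After the length correction it was -0.31. *Samhd1*, which encodes an enzyme that breaks down nucleotides needed for reverse transcription, had 408 and 259 reads. Its log2 ratio of -0.55 (interval -0.78 to -0.32) was past the counting error (adjusted p under the threshold) but under 2-fold.

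The guanylate-binding proteins and immunity-related GTPases, typical targets of interferon-γ, included the gene with the highest level of the set (*Gbp2*), and none of the 6 tested was called. Of all tested genes only 2.57% were called higher and 5.53% lower, so that this does not set the group apart. *Gbp2* alone took 27.9% of the WT reads of the 51 genes and 30.8% of the KO reads. It had 5399 and 5606 reads, 323 and 360 RPKM, and a log2 ratio of 0.16 (interval 0.10 to 0.21). *Igtp*, an immunity-related GTPase gene, had 1687 and 1289 reads, 125 and 103 RPKM, and a log2 ratio of -0.28 (interval -0.39 to -0.18). Its neighbour *Irgm2* on chromosome 11 had 344 and 277 reads (-0.21, interval -0.44 to 0.02), and *Irgm1*, elsewhere on that chromosome, 303 and 231 (-0.29, interval -0.54 to -0.04). *Gbp3* had 332 and 366 reads (0.25, interval 0.03 to 0.46), with an adjusted p of 0.0568 (exact binomial test). *Gbp6* had 25 and 11 reads, and its log2 ratio was -1.04, but its adjusted p of 0.0909 (exact binomial test) missed the threshold, and 59.7% of its 50-base stretches occur in transcripts of other genes. Within this group the genes with many reads thus differed by less than 1.5-fold, in either direction.

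*Parp14*, *Dtx3l* and *Parp9* lie together on chromosome 16 between 35831892 and 35972621, and *Dtx3l* and *Parp9* run in opposite directions with 5′ ends that overlap. PARP9 and the ubiquitin ligase DTX3L act as partners, and PARP14 is an ADP-ribosyl transferase. *Parp14* had 759 and 426 reads, a log2 ratio of -0.73 (interval -0.90 to -0.56). *Dtx3l* had 1153 and 732 reads, a log2 ratio of -0.55 (interval -0.69 to -0.42). *Parp9* had 506 and 447 reads, a log2 ratio of -0.07 (interval -0.26 to 0.11). None reached 2-fold. The transcripts of *Parp14* and *Dtx3l* are long, 7417 and 5309 bases, and the length correction brought their values to -0.34 and -0.31. *Sp100*, a nuclear body gene, had 1179 and 1009 reads (-0.12, interval -0.24 to 0.00).

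Of the remaining induced genes, *Ifi27l2a* had 283 and 169 reads, 91.9 and 59.0 RPKM, and a log2 ratio of -0.64 (interval -0.92 to -0.36). Its transcript is the shortest of the 51 genes, 463 bases, and the length correction took it just past the 2-fold limit, where it was called lower. *Lgals3bp*, which encodes a secreted galectin-binding glycoprotein, had 1151 and 935 reads (-0.20, interval -0.32 to -0.07). *Ifi35* had 261 and 299 reads (0.30, interval 0.06 to 0.55, and 0.08 after the length correction). *Tor3a*, a gene of the torsin ATPase family, had 68 and 99 reads, a log2 ratio of 0.64 (interval 0.19 to 1.11). None of these was called.

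**Figure D3:**
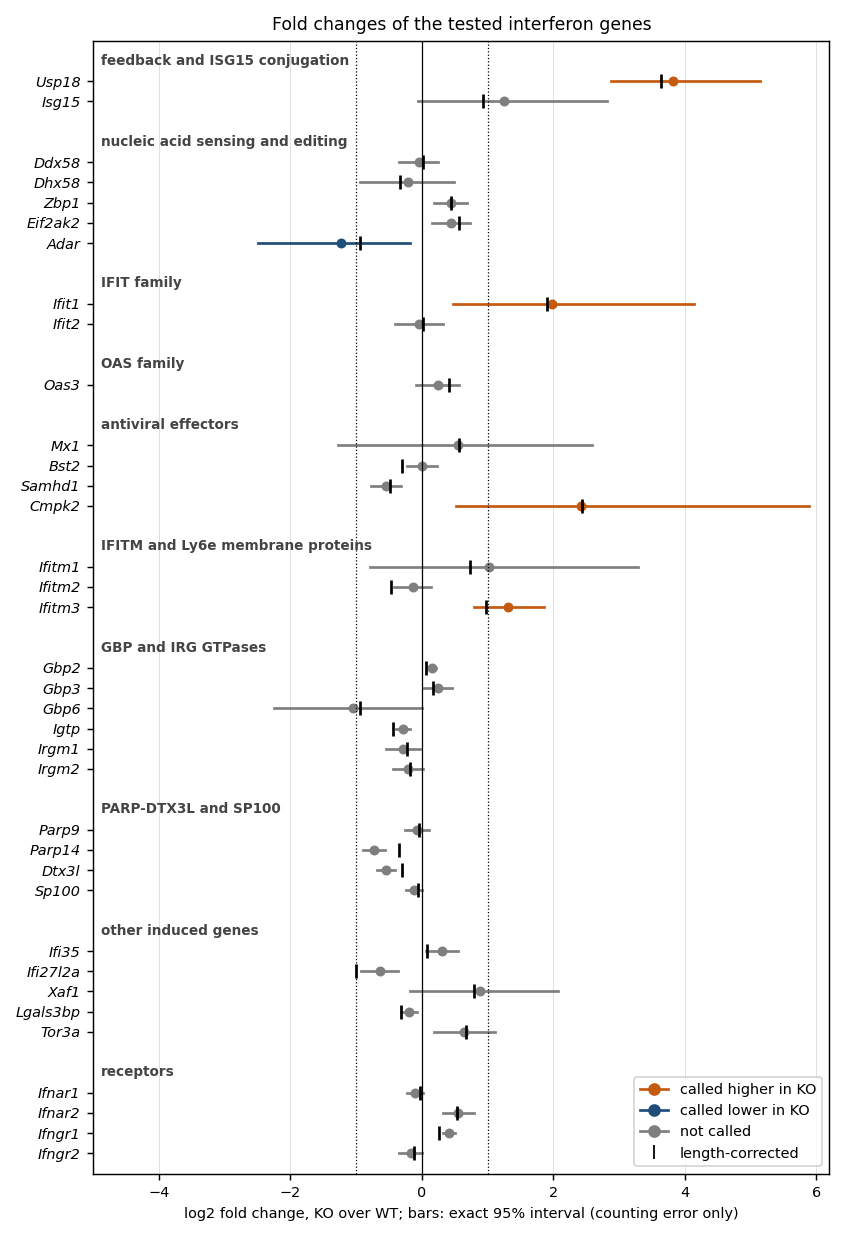
Log2 ratio (KO over WT; the axis reads log2 fold change) of the 36 tested genes by role, with exact 95% intervals for counting error (bars), the value after correction for transcript length (black ticks) and the 2-fold limits (dotted lines). The 4 genes called higher are orange and *Adar*, called lower, is blue; intervals are wide for genes with few reads, such as *Cmpk2*, and narrow for *Gbp2* and *Ifngr1*.

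All 4 receptor genes were expressed and none was called, where 2.57% of all tested genes were called higher and 5.53% lower. *Ifngr1*, which encodes the ligand-binding chain for interferon-γ, had the highest level, 134 RPKM in the WT library and 179 RPKM in the KO library. It had 1885 and 2332 reads, a log2 ratio of 0.41 (interval 0.32 to 0.50). *Ifngr2*, which encodes the signalling chain, was at 22.9 and 20.3 RPKM with 565 and 466 reads (-0.17, interval -0.35 to 0.01). For type I interferon, *Ifnar1* was at 44.4 and 41.5 RPKM with 1155 and 1003 reads (-0.10, interval -0.22 to 0.02). *Ifnar2*, whose product USP18 binds, was at 12.7 and 18.7 RPKM with 258 and 352 reads, a log2 ratio of 0.55 (interval 0.32 to 0.79). Thus *Ifngr1* and *Ifnar2* were higher in the KO library past the counting error, by less than 2-fold, while the intervals of their partner chains included 0. By the longest annotated transcripts, the order of the 4 levels was *Ifngr1*, *Ifnar1*, *Ifngr2*, *Ifnar2* in both libraries. In the KO library *Ifngr2* and *Ifnar2* were close (20.3 and 18.7 RPKM), so that their order there is not settled. *Ifnar2*, *Ifnar1* and *Ifngr2* lie in 1 run on chromosome 16 from 91372783 to 91564007. *Il10rb*, which encodes a chain shared by the receptors for IL-10 and interferon-λ and lies in the same run, had 315 and 418 reads (0.51, interval 0.30 to 0.73).

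**Figure D4:**
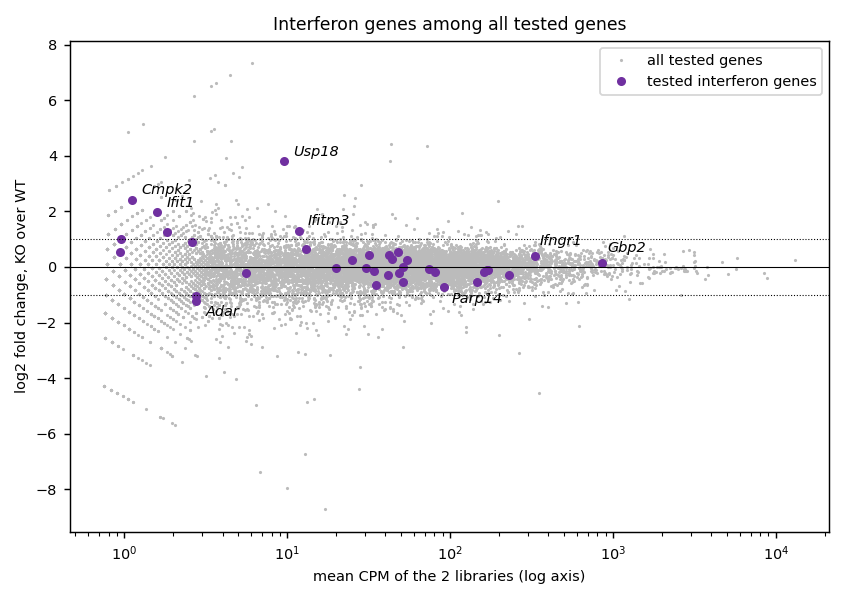
Log2 fold change (KO over WT) against the mean CPM of the 2 libraries (log axis) for all 10881 tested genes (grey) and the 36 tested interferon-related genes (purple), with dotted lines at 2-fold. *Usp18* stands above most genes of its level, *Cmpk2* and *Ifit1* lie at low levels where the spread of all genes is wide, and genes such as *Gbp2* and *Ifngr1* lie near 0.

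Interferon genes themselves were not detected: *Ifng*, *Ifnb1*, *Ifna2*, *Ifna4*, *Ifnl2* and *Ifnl3* had 0 reads in both libraries, which allows up to 0.451 and 0.485 CPM. Of 74 further genes of the pathway, 63 had reads and 57 were tested. Of these, 3 were called lower (5.26%), *Pml* and *Tlr9* among them, and 1 higher (1.75%), *Trex1*, shares near those of all tested genes (5.53% and 2.57%). Of the signalling factors, *Stat2* had 577 and 595 reads (0.15, interval -0.02 to 0.32) and *Irf9* 18 and 8 (-1.02, interval -2.48 to 0.21), both with intervals that include 0. After the length correction *Stat2* was at 0.28, then past the counting error but under 2-fold, and *Irf9* was at -0.95. Of the receptor kinases, *Jak1* had 3221 and 2506 reads (-0.26, interval -0.33 to -0.18), *Jak2* 81 and 51 (-0.56, interval -1.10 to -0.04) and *Tyk2* 14 and 16 (0.29, interval -0.83 to 1.44). After the length correction these kinases were at -0.06 (*Jak1*), -0.34 (*Jak2*) and 0.48 (*Tyk2*). *Pml*, which encodes the scaffold of the nuclear bodies that hold SP100, had 146 and 62 reads (-1.12, and -0.98 and not called after the length correction). *Tlr9*, a DNA receptor gene of endosomes, had 12 and 2 reads (-2.22). *Trex1*, which encodes a DNase that clears cytosolic DNA, had 11 and 27 reads (1.36), and was not called after that correction either.

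The letters of the ISRE core (GAAA, then 2 bases of any kind, then GAAA, on either strand) were looked for in RefSeq promoter windows of GRCm38.p6, from 250 bases before to 50 bases after each start site. A window was given for 37 of the 52 genes, and 18 of these held the letters (48.6%), against 3.99% of the 27025 genes with a window and 3.44% of the 32851 windows. The letters of the GAS (TTCNNNGAA, which reads the same on both strands) were in 14 of the 37 (37.8%), against 9.55% of genes and 8.30% of windows. No window was given for *Usp18*, *Dhx58*, *Zbp1*, *Oas2*, *Mx1*, *Mx2*, *Ly6e*, *Gbp4*, *Gbp6*, *Iigp1*, *Parp9*, *Parp14*, *Ifi27l2a*, *Rtp4* and *Tor3a*. The following stretches of 60 bases upstream of the start site show the ISRE letters (capitals), written 5′ to 3′ along the gene. They are from *Ifit1*, which was called higher, and from genes that were not called. Matches can overlap each other, as in *Isg15* and *Gbp3*, or a GAS, as in *Bst2*.
Ifit1, chr19:34640769-34640828, plus strand: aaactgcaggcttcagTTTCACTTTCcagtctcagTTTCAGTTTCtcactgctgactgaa
Isg15, chr4:156200856-156200915, minus strand: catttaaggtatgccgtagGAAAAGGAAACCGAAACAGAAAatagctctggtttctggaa
Oas3, chr5:120777700-120777759, minus strand: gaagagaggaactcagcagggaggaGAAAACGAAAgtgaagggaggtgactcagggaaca
Bst2, chr8:71537565-71537624, minus strand: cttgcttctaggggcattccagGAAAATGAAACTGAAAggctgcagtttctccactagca
Gbp2, chr3:142620579-142620638, plus strand: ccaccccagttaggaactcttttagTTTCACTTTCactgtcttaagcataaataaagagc
Gbp3, chr3:142559977-142560036, plus strand: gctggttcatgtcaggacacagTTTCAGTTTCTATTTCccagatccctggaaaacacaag
Igtp, chr11:58199496-58199555, plus strand: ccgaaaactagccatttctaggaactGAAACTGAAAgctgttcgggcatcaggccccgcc
Irgm2, chr11:58214888-58214947, plus strand: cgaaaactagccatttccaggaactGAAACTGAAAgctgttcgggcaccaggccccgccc

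*Ifit1*, with 2 separate ISRE matches, was called higher, whereas *Gbp2*, with 1 match of the same letters TTTCACTTTC, differed by 0.16 on the log2 scale. *Isg15*, with 3 overlapping matches, had 7 and 16 reads and was not called. The stretches of *Igtp* and *Irgm2* are near copies, with 57 of 59 aligned bases identical. These genes had log2 ratios of -0.28 and -0.21, and of -0.44 and -0.18 after the length correction. *Irgm1* was at -0.29, and at -0.22 after that correction. Of the 50-base stretches of *Igtp*, 12.3% also occur in *Irgm2*. Whether like promoters go with like ratios was not tested. In *Ifitm3* the 2 ISRE matches begin 3 and 20 bases into the transcript. Of the 13 tested genes with ISRE letters in their window, 2 were called higher and 0 lower, with log2 ratios from -0.29 to 1.98 and a median of 0.16. Of the 14 tested genes with a window but without the letters, 1 was called higher and 1 lower, with a median of -0.07. Over all tested genes, with or without the letters, 2.57% were called higher and 5.53% lower, and with so few genes on either side nothing is read from these counts. A match of letters is a description of the sequence and not evidence of binding.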

How the data were processed

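RNA-seq of WT and KO Th17 cells was analysed, 1 library each; the ChIP-seq samples were not analysed here. The authors mapped reads to mm10 with SOAP2 (HTSeq and Bowtie are also named in the submitters' processing notes) and deposited, per gene, the raw number (counts) of reads assigned to it uniquely. The annotation, the use of strand and the rule for reads that match several genes are not given in the sources used here. Genes without reads are not listed and were given 0 reads.

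Counts were scaled to library totals (6.65 M and 6.19 M reads) and 0.5 was added to each before log2. For each gene with 10 or more reads in sum, SciPy 1.17.1 gave an exact binomial p (two-sided; null, the KO share of all reads), Benjamini-Hochberg adjusted over all such genes, since with 1 library per genotype a replicated test has no residual degrees of freedom. Intervals of fold changes are Clopper-Pearson, those of CPM exact Poisson; both cover counting error only, as PCR copies could not be told from separate molecules. Positions came from RefSeq GRCm38.p6 and transcript lengths from GENCODE M21, found for 99.2% of tested genes. Shared 50-base stretches were counted between a gene's longest transcript and the GENCODE transcripts of other genes, and exon overlap in RefSeq. Alternatives used TMM scaling and exact tests of edgeR 4.0.16 at assumed coefficients of variation, size factors of DESeq2 1.42.0, and a loess curve against transcript length (statsmodels 0.14.6, span 0.3). The calculations were tested on simulated data. Python 3.11.15 and R 4.3.3 were used.

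The interferon genes and the other lists were chosen with earlier results of these data known. Full values are given for every gene called, the 4 receptors, the 10 tested genes with the highest mean RPKM and those with 0 reads in a library; other genes named were chosen to show their role after their values were seen. Of the genes that this rule names, 1 is not reported here.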

Additional observations from a re-analysis of the deposited data

How the results depend on the processing

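No paired analysis was possible because there was 1 library per genotype, and for the same reason no library could be left out. Settings were varied 1 at a time. The count of interferon-related genes called higher (4) fell to 1 when each library had to hold 10 or more reads, where *Usp18*, *Ifit1* and *Cmpk2* are left out by their WT counts, to 1 (*Usp18*) with the exact test of edgeR and variation between cultures assumed at 0.2 (coefficient of variation), and to 0 at 0.4. It was 5 with at least 1 read, where *Rtp4* joined, and 3 with the length correction. The count called lower (1) fell to 0 with 5 added to each count, with at least 1 read and at assumed variation of 0.2 and 0.4, and rose to 3 with the fold limit set to 1.5. With the length correction it was 1, but *Ifi27l2a* in place of *Adar*. Over all genes, the counts lower and higher (602 and 280 of 10881) were 389 and 184 of 9447 with at least 10 reads in each library. They were 620 and 291 of 13704 with at least 1 read, and 466 and 266 of 10793 with the length correction. Of the 10881 genes they were 536 and 247 with 5 added to each count and 1248 and 764 with the fold limit at 1.5. At assumed variation of 0.2 they were 131 and 65, and 9 and 7 at 0.4. The share lower among called genes was 68.3%, and 56.2% at 0.4. The median log2 fold change of the interferon-related genes lay between -0.09 (at least 10 reads in each library) and 0.10 (at least 1 read), and was 0.00 with TMM scaling and with DESeq2's size factors. Of 26 named genes, *Bst2* changed direction, to -0.31 with the length correction. Of their 229 values, 201 kept direction and call, 25 lost the call, 17 of these at assumed variation of 0.2 or 0.4 and 5 with the length correction, and 2 gained it. The 201 do not show that calls were stable, because a gene not called at first counts as kept while it stays uncalled. At assumed variation of 0.2, 8 calls of named genes were lost, all but that of *Usp18*. At 0.4, 9 were lost, and no named gene kept its call. Depth limits the genes with few reads: the 95% interval of *Isg15* (7 and 16 reads) ran from -0.06 to 2.82.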
